A study of Mus musculus with 4 samples.

Results

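The FGF ligands, receptors and feedback genes described here are Fgf7, Fgf10, Fgfr1, Fgfr2, Spry1, Spry2, Spry4, Dusp6, Etv4 and Etv5, 10 of the 29924 gene names on the array. They were chosen by name, and every probe that carries such a name was taken, which gave 14 probes for the 10 genes. All 14 were well above background in all channels, so that all 10 genes were among the 22461 that were tested. The tissue was the ureter of wildtype NMRI mouse embryos at E12.5, of undetermined sex, kept as explants for 18 h on membranes. Treated explants received IWP-2 at 10 µM, and control explants received the solvent DMSO. IWP-2 inhibits Porcupine, the enzyme that lipidates WNT ligands for secretion, and it acts on epithelium and mesenchyme of the explant alike. Each of 4 two-colour arrays carried treated RNA in one channel and control RNA in the other. The treated RNA was labelled with AlexaFluor647 (red) on arrays 1 and 3 and with AlexaFluor555 (green) on arrays 2 and 4. The sources differ on whether 4 or 2 pools per group were used, so that n = 4 counts arrays, and some arrays may be dye swaps of the same RNA.

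FGFs of the FGF7 and FGF10 type are secreted by mesenchyme and bind the epithelial splice form of FGFR2. Receptor activation feeds the RAS-ERK cascade, which induces the ETS transcription factor genes Etv4 and Etv5 and a set of feedback inhibitors. Sprouty proteins damp signalling upstream of ERK, and DUSP6 is a phosphatase that inactivates ERK. In the ureteric bud and its derivatives, the receptor tyrosine kinase RET feeds the same cascade, so that Sprouty and ETS genes read more than FGF input.

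Values below are log2 intensities per channel, called levels, and log2 ratios of IWP-2 over control within an array, called differences. A level depends on the probe and was not compared between genes. Adjusted p stands for limma's two-sided p, corrected by Benjamini-Hochberg for the 22461 genes tested, and a gene passed the test below 0.05. Control channels had a median raw intensity of 368 to 711 and treated channels one of 385 to 694, against a local background of 28 to 77. Of the tested genes 33.1% passed the test, 18.1% as higher and 15.0% as lower with IWP-2, and in 22.4% the 4 treated and the 4 control levels did not overlap. Axin2, a direct target of canonical WNT signalling, differed by -1.56 ± 0.09 (SD, n = 4), and its other probe by -0.59.

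Against this background, 6 of the 10 members were higher with IWP-2, 1 was lower and 3 did not pass the test. Spry1 and Spry2 had the largest differences, followed by Fgf7, and Fgfr2 was the member that fell. The median difference was 0.26 over the 10 members, compared with 0.00 over all genes tested. By role it was 0.45 for the 2 ligands, -0.09 for the 2 receptors, 0.56 for the 4 Sprouty and DUSP6 genes and 0.13 for the 2 ETS factors. In 6 members, Fgf7, Fgfr1, Fgfr2, Spry1, Spry2 and Dusp6, the treated and control levels did not overlap. No member differed more than 2-fold on each of the 4 arrays.

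**Figure D1:**
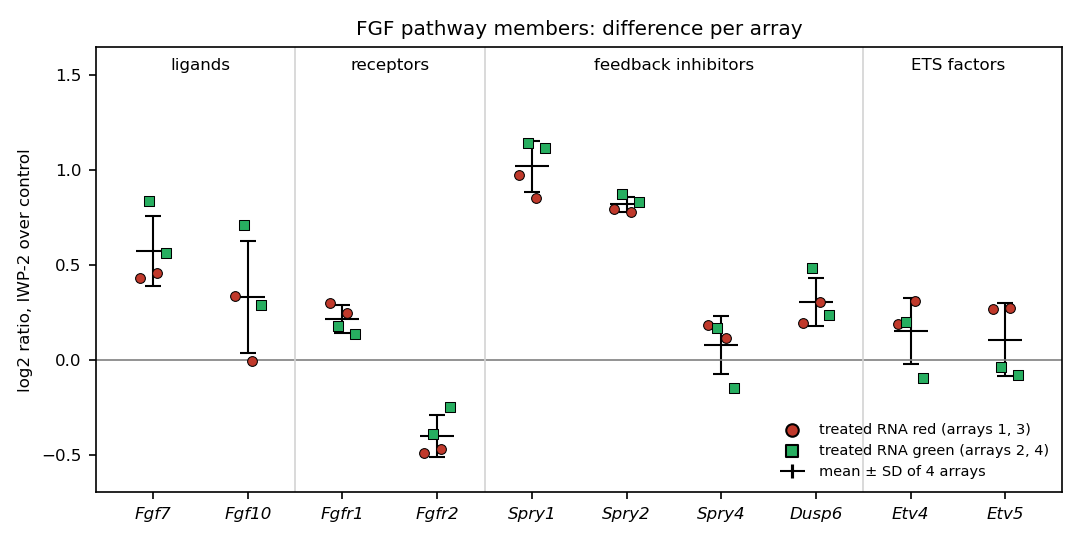
Log2 ratio of IWP-2 over control for each member on each of the 4 arrays, with the mean and SD (black), circles for arrays with the treated RNA in red and squares for those with it in green. Spry1, Spry2 and Fgf7 lie above 0 and Fgfr2 below 0 on all arrays, while the points of Etv5 lie on either side of 0 by dye.

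Of the ligands, Fgf7 (chromosome 2, 125916134 to 125916193 in mm9) rose. Its control level was 12.258, 11.640, 11.999 and 12.034 on arrays 1 to 4, and its level with IWP-2 was 12.691, 12.476, 12.458 and 12.595. Every treated level was above every control level, and the control channels spread more widely, with an SD of 0.26 against 0.11. The difference was 0.57 ± 0.18 (SD, n = 4), with a 95% interval of 0.44 to 0.70 and an adjusted p of 0.000774, which is a 1.49-fold higher level. It was largest on array 2, at 0.84, where the control level was lowest.

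Fgf10 (chromosome 13, 119580365 to 119580424) encodes the ligand best known for branching of lung and limb bud outgrowth. Its control level was 10.325, 9.967, 10.533 and 10.415 on arrays 1 to 4, and its level with IWP-2 was 10.660, 10.678, 10.527 and 10.702. The treated levels spanned 0.17, while the control levels spanned 0.57, and the groups overlapped through array 3. The difference of 0.33 ± 0.29 (SD, n = 4) passed the test with an adjusted p of 0.0266 and a 95% interval of 0.13 to 0.54. It was positive on 3 of 4 arrays, at 0.33, 0.71 and 0.29, and -0.01 on array 3. The call rested on single arrays, since the adjusted p was 0.0953 without array 1 and 0.0603 without array 2.

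Between the receptors the direction was opposite. Fgfr2 (chromosome 7, 137307473 to 137307532), which encodes the receptor for FGF7 and FGF10 in its epithelial form, fell with IWP-2. Control levels were 14.83, 14.93, 14.98 and 14.57, and levels with IWP-2 were 14.34, 14.53, 14.51 and 14.32. All 4 treated levels lay below all 4 control levels. The difference was -0.40 ± 0.11 (SD, n = 4), with a 95% interval of -0.50 to -0.30 and an adjusted p of 0.00121, a 1.32-fold lower level. A further probe of Fgfr2, which shares 42 of its 60 bases with the first, gave -0.37 ± 0.07 and passed the test over all probes with an adjusted p of 0.00154. As the probes overlap, they are no separate reading of the transcript, and they do not separate the splice forms of the receptor. With the authors' table of fold changes the adjusted p was 0.0549.

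Fgfr1, the receptor prominent in mesenchyme, was read by 3 probes on chromosome 8, and these did not give the same answer. The brightest (26685072 to 26685131) stands for the gene. There the control level was 14.11, 14.31, 14.28 and 14.18 and the level with IWP-2 was 14.41, 14.49, 14.53 and 14.31. The groups did not overlap, by a margin of 0.00465. The difference of 0.22 ± 0.07 (SD, n = 4) was positive on all arrays and passed the test with an adjusted p of 0.00775. At the probe lying farther along the gene (26685820 to 26685879) it was 0.10 ± 0.12, with an adjusted p over all probes of 0.158. At the remaining probe (26684061 to 26684120) it was 0.00 ± 0.12, with a 95% interval of -0.13 to 0.13 and an adjusted p of 0.965. When the mean of the probes stood for the gene, Fgfr1 did not pass, with an adjusted p of 0.0992. The probe without a difference is shown here as printed on the array (mm9, plus strand, chr8:26684061-26684120), because the Fgfr1 call depends on which of the 3 probes is read.
Fgfr1 probe: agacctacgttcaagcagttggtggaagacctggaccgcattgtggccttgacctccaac

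**Figure D2:**
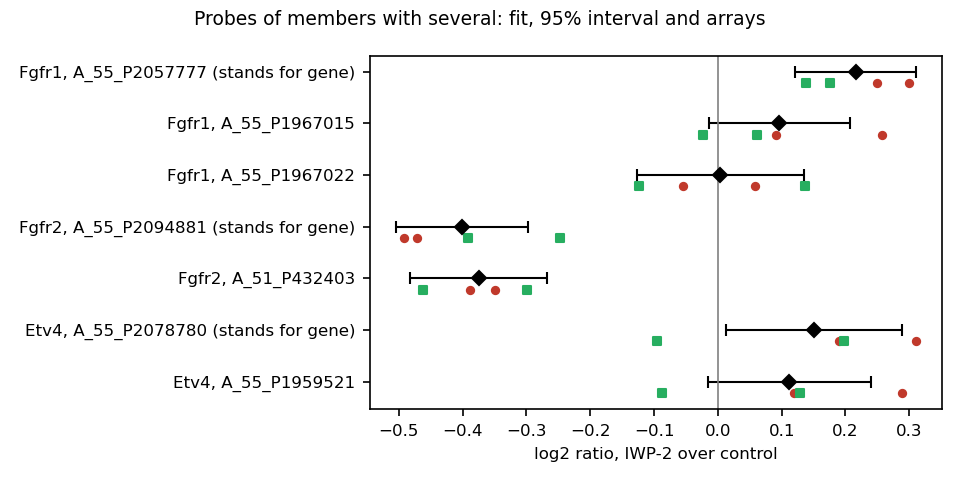
Log2 ratio of IWP-2 over control for each probe of the members with more than 1 probe, as the fitted value with its 95% interval (diamonds) and the 4 arrays (circles for treated RNA in red, squares for green). Both Fgfr2 probes lie below 0, whereas only the brightest Fgfr1 probe has an interval above 0.

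The Sprouty genes held the largest differences of the members. Spry1 (chromosome 3, 37543403 to 37543462) encodes a Sprouty protein known for restraining RET signalling in the ureteric bud. In the control channels its level was 12.41, 12.38, 12.62 and 12.43, and with IWP-2 it was 13.38, 13.53, 13.47 and 13.55. The lowest treated level exceeded the highest control level by 0.76. The difference of 1.02 ± 0.13 (SD, n = 4) corresponds to a 2.03-fold higher level, with a 95% interval of 0.92 to 1.12 and an adjusted p of 3.22e-05. Of all genes tested, 99.8% had a smaller or more negative difference. It exceeded 2-fold on 3 of 4 arrays in the processed intensities. The mean difference was 0.91 where the treated RNA was red and 1.13 where it was green, with an unadjusted p of 0.0386 and an adjusted p of 0.244 for the dye term of the limma fit.

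Spry2 (chromosome 14, 106291845 to 106291904), a Sprouty gene active in many epithelia, had the most even difference of the members. Control levels of 9.50, 9.56, 9.64 and 9.58 stood against 10.29, 10.44, 10.43 and 10.41 with IWP-2. On single arrays the difference lay between 0.78 and 0.87. Its mean was 0.82 ± 0.04 (SD, n = 4), a 1.77-fold higher level, with a 95% interval of 0.73 to 0.91 and an adjusted p of 5.17e-05. The calls of Fgf7, Spry1 and Spry2 were kept in all 16 alternative analyses.

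Promoter windows of 250 bases before the annotated start were read from RefSeq (GRCm38.p6) for 7 of the 10 members, in 8 windows since Etv5 has 2. The windows of Spry1 and Spry2 are shown because these members rose most and together, with each CG in capitals.
Spry1 (chr3:37639697-37639946, plus strand): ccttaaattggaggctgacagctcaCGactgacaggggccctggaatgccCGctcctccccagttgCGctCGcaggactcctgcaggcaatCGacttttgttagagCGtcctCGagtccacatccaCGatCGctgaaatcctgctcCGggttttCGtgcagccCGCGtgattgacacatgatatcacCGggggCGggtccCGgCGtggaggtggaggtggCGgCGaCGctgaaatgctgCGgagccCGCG
Spry2 (chr14:105896820-105897069, minus strand): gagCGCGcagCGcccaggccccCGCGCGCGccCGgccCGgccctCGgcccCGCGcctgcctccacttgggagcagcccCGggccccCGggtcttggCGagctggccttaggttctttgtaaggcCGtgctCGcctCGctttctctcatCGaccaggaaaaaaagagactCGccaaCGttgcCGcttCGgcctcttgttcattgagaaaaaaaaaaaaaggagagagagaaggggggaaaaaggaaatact
Each holds 23 CG dinucleotides and 62.4% G or C, compared with a median of 6 and 52.4% over 32851 promoter windows. The other windows hold 2 CG (Fgfr2), 6 (Fgf7), 8 (Fgf10), 16 (Dusp6), and 18 and 27 (Etv5). The highest count thus belongs to Etv5, which did not pass the test. In both strands of the 8 windows, the letters CTTTGAT or CTTTGAA (TCF/LEF), CCGGAAGT (ETS) and TGACTCA (AP-1) were found in 0 windows. Over all promoter windows they were found in 7.48%, 2.88% and 4.46%, respectively.

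Spry4 (chromosome 18, 38745923 to 38745982), the other Sprouty member, did not pass the test. Its levels ran from 9.03 to 9.46 in the control channels and from 9.20 to 9.51 with IWP-2, so that the groups overlapped. The difference was 0.18, 0.17, 0.11 and -0.15 on arrays 1 to 4, with a mean of 0.08 ± 0.15 (SD, n = 4) and an adjusted p of 0.349. Its 95% interval of -0.06 to 0.22 lies below the intervals of Spry1 and Spry2, and on each of the 4 arrays its difference was the smallest of these 3.

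Dusp6 (chromosome 10, 98729985 to 98730044) rose to a lesser extent. Control levels were 14.30, 13.99, 14.07 and 14.31, and levels with IWP-2 were 14.49, 14.47, 14.38 and 14.54. The groups did not overlap, although the highest control and the lowest treated level were close. The difference of 0.31 ± 0.13 (SD, n = 4) was positive on 4 of 4 arrays, with a 95% interval of 0.18 to 0.43 and an adjusted p of 0.00702. With the authors' table of fold changes the adjusted p was 0.140.

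The ETS factor genes did not pass the test. Etv4 (chromosome 11, 101631057 to 101631116) differed by 0.19, 0.20, 0.31 and -0.09 on arrays 1 to 4, with a mean of 0.15 ± 0.17 (SD, n = 4), a 95% interval of 0.01 to 0.29 and an adjusted p of 0.0930. Without array 4 the adjusted p was 0.0247. The other Etv4 probe (101631322 to 101631381) gave 0.11 ± 0.15, with an adjusted p over all probes of 0.158. Etv4 and its relative Etv5 are widely used as readouts of FGF and RET signalling.

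Etv5 (chromosome 16, 22381387 to 22381446) split by dye orientation. Where the treated RNA was red the difference was 0.27 and 0.28, and where it was green it was -0.04 and -0.08. The levels of the groups overlapped. The mean of 0.11 ± 0.19 (SD, n = 4) had an adjusted p of 0.0775 and a 95% interval of 0.01 to 0.20. The dye term of Etv5 had an unadjusted p of 0.00415 and an adjusted p of 0.153 in the limma fit. For no gene did the dye term pass the threshold, while 4231 of the 22461 genes had an unadjusted p under 0.05. Arrays of the same dye orientation correlated better, at r of 0.798 and 0.831 over the differences of all genes tested. Between opposite orientations r was 0.625 to 0.740. Whether the dye accounts for this pattern was not tested.

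**Figure D3:**
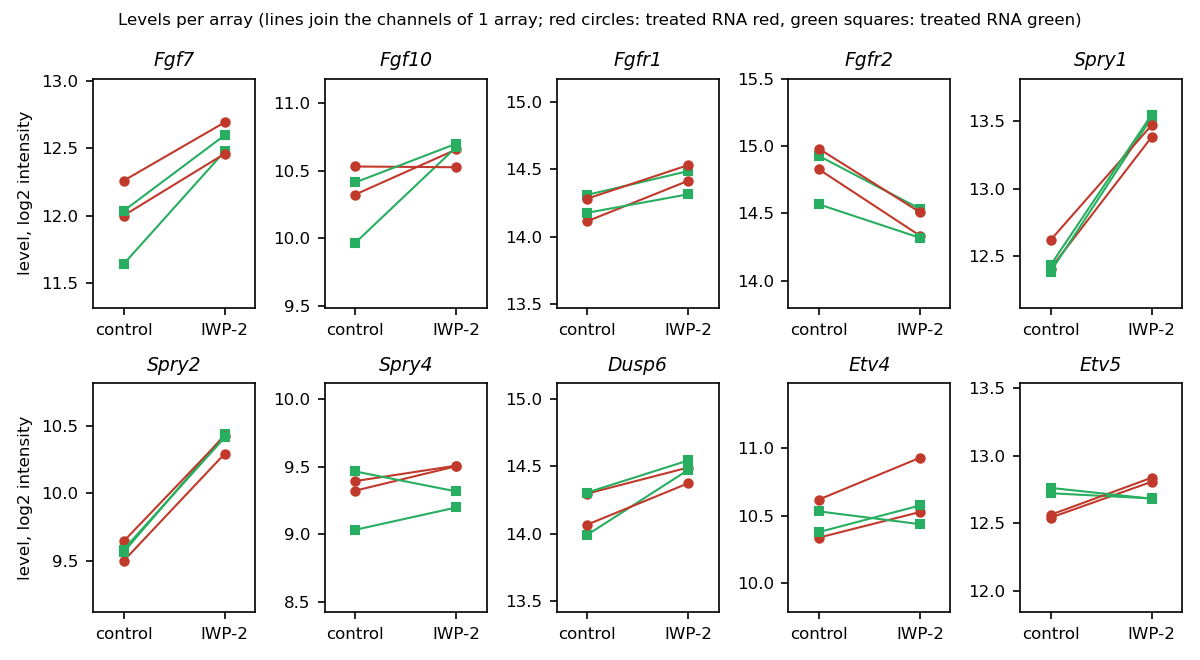
Level of each member in the control and the IWP-2 channel of each array, in log2 intensity after normalisation, with a line joining the channels of 1 array and axes of equal span in all panels. All 4 lines of Spry1 and of Spry2 rise and all 4 of Fgfr2 fall, while Spry4, Etv4 and Etv5 each have rising and falling lines.

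Of the other FGF ligand genes, 15 of 20 were tested, of which 5 were higher, 2 were lower and 8 did not pass. By comparison, 18.1% of all genes tested were higher and 15.0% lower. Fgf9, an epithelial and mesothelial ligand in several organs, rose by 0.54 ± 0.08. Fgf5 rose by 0.39 ± 0.09 and Fgf18 by 0.32 ± 0.11. The largest differences belonged to genes of intracellular FGF homologous factors, which do not signal through FGF receptors. Fgf12 rose by 0.72 ± 0.14 and Fgf14 fell by 0.88 ± 0.18, each in the same direction at all 3 of its probes. Fgf2, Fgf3, Fgf4, Fgf16 and Fgf21 did not meet the filter on dim probes and were not tested.

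Among the other receptors, Fgfr3 fell by 1.06 ± 0.22 (adjusted p = 0.000105) on all 4 arrays, a larger fall than that of Fgfr2, and its 3 probes ranged from -1.06 to -0.51. Fgfr4 fell by 0.23 ± 0.10, with 1 of its 2 probes past the test over all probes, and Fgfrl1 gave -0.02 ± 0.06. The co-receptor genes Kl and Klb were too dim to be tested. Thus 3 of the 4 genes Fgfr1 to Fgfr4 that encode signalling receptors were lower, and Fgfr1 was not. Of all genes tested, 15.0% were lower.

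Heparan sulfate proteoglycans present FGFs to their receptors. Of 15 genes for FGF-binding proteins, proteoglycan cores and heparan sulfate enzymes, 2 were higher, 6 were lower and 7 did not pass. Among all genes tested, the shares were 18.1% higher and 15.0% lower. Fgfbp1, which encodes a carrier of FGFs, rose by 0.66 ± 0.08 and the sulfotransferase gene Hs6st1 by 0.22 ± 0.12, the latter at 1 of 2 probes. Sdc2, the gene of a syndecan core protein, fell by 0.98 ± 0.10, the sulfatase gene Sulf1 by 0.60 ± 0.12 and the sulfotransferase gene Hs6st2 by 0.56 ± 0.24.

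In the cascade itself, of 17 genes for adaptors and RAS-ERK components, 4 were higher, 2 were lower and 11 did not pass. Over all genes tested 18.1% were higher and 15.0% lower. The genes of both MEK and both ERK kinases did not pass. Sos2 at 0.27 ± 0.20 and Shc1 at 0.26 ± 0.08 were higher, and the adaptor gene Gab1 at -0.44 ± 0.13 and the phosphatase gene Ptpn11 at -0.21 ± 0.10 were lower.

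Other regulators of receptor tyrosine kinase signalling, mostly feedback inhibitors, were mixed, with 5 of 14 higher, 4 lower and 5 not passed. Flrt2 and Flrt3, both among the 4 lower, are not classed as inhibitors. Il17rd, which encodes the FGF antagonist SEF, rose by 0.53 ± 0.01, the ERK phosphatase gene Dusp7 by 0.41 ± 0.03 and Spred2 by 0.37 ± 0.18. Flrt2 fell by 0.46 ± 0.23, Spry3 by 0.28 ± 0.15 and Dusp9 by 0.21 ± 0.13. Of 8 further tested genes that are often read as output of ERK, 0 were higher and 5 were lower, with 3 not passed and Fosl1 not tested. The shares over all genes tested were 18.1% higher and 15.0% lower. Ccnd1, also a known target of WNT signalling, fell by 0.78 ± 0.26, Epha4 by 0.48 ± 0.14, Ier3 by 0.41 ± 0.20, Etv1 by 0.36 ± 0.12 and Dusp2 by 0.29 ± 0.10. Etv1, of the same ETS subfamily as Etv4 and Etv5, was lower at both its probes. The median difference was -0.32 for these 8 genes, compared with 0.23 for the 6 feedback members. The latter join the 4 Sprouty and DUSP6 genes, with a median of 0.56, and the 2 ETS factors, with 0.13. ERK activity itself was not tested.

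**Figure D4:**
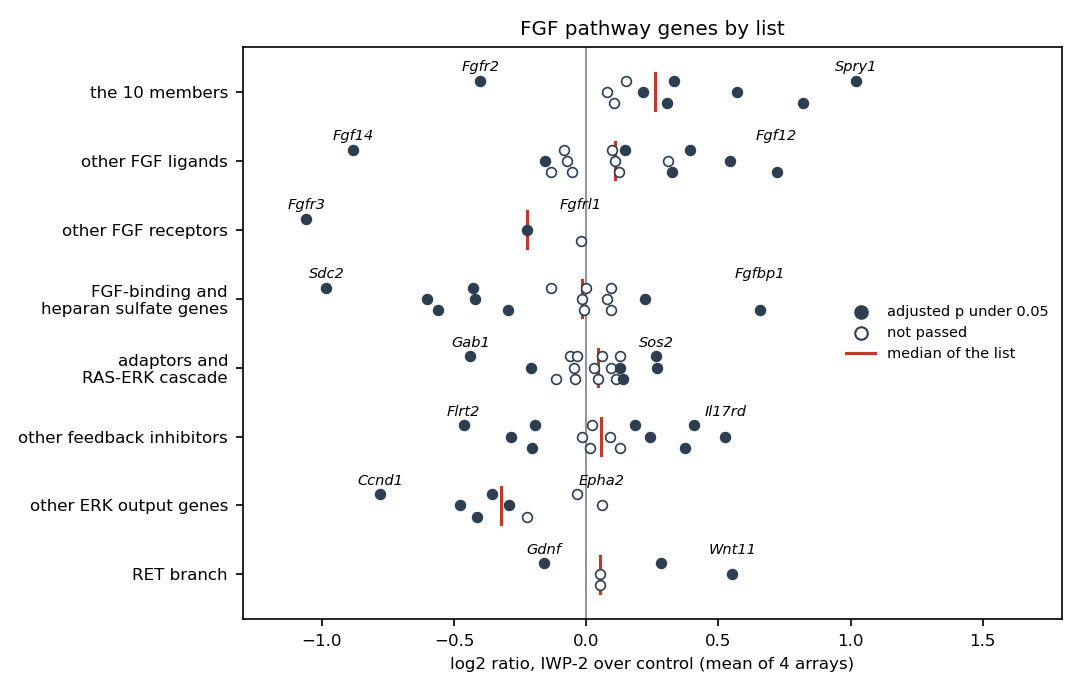
Mean log2 ratio of IWP-2 over control of each tested gene by list, filled where the adjusted p was under 0.05, with the median of each list (red line) and the names of its lowest and highest gene. The members reach from Fgfr2 to Spry1, and the other ERK output genes that passed all lie below 0.

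RET and its ligand GDNF feed the same cascade in the ureteric bud. Ret rose by 0.28 ± 0.09 and Wnt11, a gene of the bud tip, by 0.55 ± 0.09, while Gdnf fell by 0.16 ± 0.18. The fall of Gdnf was uneven, with differences of 0.07, -0.32, -0.11 and -0.29 on arrays 1 to 4. The other 2 of the 5 genes of this branch did not pass. All genes tested had shares of 18.1% higher and 15.0% lower.

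In whole explants, fewer cells of a type and less RNA per cell cannot be told apart, and several cell type markers moved together with the members. All 8 ureteric epithelium markers, Epcam and Cdh1 among them, were higher with IWP-2, by 0.24 to 0.64, with a median of 0.32. Their summed level ran from 201849 to 219379 intensity units in the control and from 236419 to 294296 in the treated channels. Fgfr2 fell while these markers rose. Of the 6 mesenchyme markers, Pdgfrb rose by 0.80 ± 0.07, Tbx18 fell by 0.74 ± 0.26 and 4 did not pass, and their sums overlapped at 361300 to 390871 and 374622 to 416677. Nephron progenitor markers were higher in 5 of 6 cases, and 1 was lower, Crym at -0.96 ± 0.45. Six2 rose by 1.14 ± 0.27, and by 0.35 at its other kept probe. Cited1, Eya1, Osr1 and Meox1 rose by 0.16 to 0.39. Eya1 differed by 0.02 and -0.07 where the treated RNA was red, and by 0.32 and 0.40 where it was green. The sums of all 6 were 46205 to 50530 in the control and 51481 to 58673 in the treated channels. Endothelium markers were higher in 4 of 5 cases (45438 to 53820 against 52790 to 61960), macrophage markers in 4 of 5 (11929 to 14293 against 13755 to 15928), blood markers in 4 of 6 (283286 to 430626 against 404700 to 456881) and neural crest and glia markers in 2 of 5 (28682 to 38284 against 29653 to 45596). Over all genes tested, 18.1% were higher. Hbb-y, counted among the higher blood markers, split by dye orientation. It differed by 0.61 and 0.73 where the treated RNA was red, and by -0.10 and -0.14 where it was green. The summed blood level was higher with IWP-2 on 3 of 4 arrays. All markers of these lists were well above background in all channels. Their part in the differences of the FGF genes was not tested.

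The genes with a pattern nearest to that of Spry1, by Euclidean distance over the 4 differences among all named genes, were Col24a1 at a distance of 0.147, Sned1 at 0.150 and Asb4 at 0.187. Their mean differences were 0.96 ± 0.11, 1.07 ± 0.08 and 1.03 ± 0.22 (SD, n = 4).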

How the data were processed

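RNA of treated and control pools was hybridised to 4 two-colour Agilent arrays that shared 1 slide and 1 scan. The authors ran Agilent Feature Extraction 10.7.3.1, and the deposited mean spot and background intensities are raw values. The deposited log10 ratio of red over green was used only to check direction (r of 0.730 to 0.783 with the ratios used here, across gene spots). The table of signed fold changes per array, a score rounded by the authors and of unstated normalisation, served as an alternative (r of 0.908 to 0.919 with the processed ratios, across genes). It gives treated over control.

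Intensities were background corrected in limma 3.58.1 (R 4.3.3) with normexp (offset 50) and loess normalised within arrays (span 0.3), control spots having weight 0. The offset draws ratios of dim probes towards 0. Outlier spots (3.01% to 3.38% of gene spots) were left out and the spots of a probe averaged. No gene spot was saturated. A channel detected a probe if over 0.5 of its spots were well above background, and probes detected by all 4 control or all 4 treated channels were kept. This left 29943 of 39429 probes, and the brightest stood for its gene. Of the 22461 names 17852 have a RefSeq symbol or synonym. Levels were made comparable between arrays with Aquantile normalisation.

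Log2 ratios were fitted with lmFit and eBayes on treatment and dye, and p-values were adjusted over all genes. The fit was tested on simulated data. The labels number 4 control and 4 treated samples, and the study's methods give 4 pools for this stage, whereas its results and figure legend speak of 2 arrays and 2 pools per stage. This was not settled. If arrays are dye swaps of the same RNA, the SD and p-values hold partly technical spread, and they measure only the spread between these arrays. Their number limits the precision. The study names no test for the arrays. Positions are those of the files (mm9), and exons were not assigned here.

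The members and the gene lists were chosen with earlier results of these data known. Named are all members with each probe, of every other list the genes past the test (all if 6 or fewer, otherwise the 3 largest in each direction, markers by example), Axin2, and the 3 genes nearest to Spry1. Alternatives were other background corrections, normalisations, filters and probe choices, no dye term, the authors' table, separate channels, averaged replicates and leaving out each array.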

Additional observations from a re-analysis of the deposited data

Results flagged for a closer look

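The median difference of the RET branch genes was flagged because 1 array stood apart from the others. It was -0.0280 on array 4, against 0.156, 0.180 and 0.187 on arrays 1 to 3. This was the only flag among 35 values screened, where chance alone gives 1.75. None of the 10 members was flagged.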

How the results depend on the processing

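The direction and call of Fgf7, Spry1 and Spry2 held in all 16 alternatives, and 4 to 8 members passed. Fgf10 lost its call with the processed signals (adjusted p = 0.0508), without the dye term (0.0539), with the authors' table (0.152) and without replicate 1 (0.0953) or 2 (0.0603). Fgfr1 lost it with the mean of all probes, and Fgfr2 and Dusp6 with the authors' table. Etv4 passed with replicates 1 and 2, and 3 and 4, averaged (0.0478) and without replicate 4 (0.0247). Spry4 turned to -0.000268 without replicate 2 (adjusted p = 0.998) and ranged up to 0.157, without replicate 4. The authors' table gave 3883 changed genes (1833 higher and 2050 lower, against 4069 and 3360) and 4 changed members. The receptor median moved from -0.09 to -0.140 with median centring and to -0.141 with the mean of all probes. The causes were not tested.

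With separate channels and the array as a replicate block, 9800 genes and 8 members passed, Etv5 being the added member (adjusted p = 0.0111). Leaving out 1 array gave 5056 to 5878 genes and 6 to 8 members, a ligand median of 0.365 to 0.539, a receptor median of -0.106 to -0.0793 and a feedback median of 0.170 to 0.295. A batch term was not run, since the arrays share 1 slide and 1 scan. If replicates 1 and 2, and 3 and 4, were dye swaps of the same RNA, there would be 2 pools per group, and 7350 genes and 8 members passed in that fit.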
